A study of Mus musculus with 6 samples.

Results

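The serotonin receptor genes Htr3a, Htr3b, Htr1a, Htr1b, Htr1d, Htr1f, Htr2a, Htr2b, Htr4 and Htr7 are described here in mouse jugular-nodose ganglia, the joined ganglia that hold the cell bodies of the vagus nerve's sensory neurons. They were chosen by symbol, with earlier results of these data known, and all 10 were found among the 32719 genes counted. RNA of 6 libraries was sequenced, 3 titled as controls and 3 as treated, from wild-type male C57BL/6J mice. Per the protocol, mice carried osmotic pumps under the skin for 2 weeks, holding either only PBS or, for the treated mice, S961 in PBS at 10 nmol per week. S961 is a peptide antagonist of the insulin receptor. All 6 libraries carry S961 as their treatment label, so the identity of the controls rests on their titles and the protocol. The labels give no age and do not say whether the replicates are separate animals, so p-values measure the spread between these samples, which may be technical.

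Serotonin reaches vagal endings mainly from enterochromaffin cells of the gut lining, which release it in response to nutrients, irritants and stretch. Its ionotropic receptor, 5-HT3, is a cation channel of 5 subunits that depolarises the nerve ending within milliseconds, and drugs that block it are used against nausea and vomiting. The other receptors act through G proteins: the 5-HT1 type through Gi, which lowers cyclic AMP, the 5-HT2 type through Gq and phospholipase C, and 5-HT4 and 5-HT7 through Gs, which raises cyclic AMP.

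In the controls the pair of 5-HT3 subunit genes made up nearly all of the receptor RNA per gene length, led by Htr3a. Both stood lower in all 3 treated libraries, Htr3a at 450 ± 27.6 CPM in controls, compared with 208 ± 103 CPM after treatment, and Htr3b at 45.8 ± 4.21 and 19.0 ± 11.4 CPM (SD, n = 3). CPM are counts relative to the library size after scaling. Among the chosen genes, the receptors that couple to G proteins were far scarcer than Htr3a. All of these but Htr1f had higher mean values in treated ganglia. No difference of a single receptor passed at an adjusted p of 0.05.

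The libraries held 12898607 to 33522486 gene counts, and treated replicate 3 was the smallest. It stood apart, with correlations of 0.920 to 0.944 with the other 5 libraries across 12197 genes, against 0.968 to 0.989 among those 5. It also held the most fat cell RNA: the 6 fat cell markers summed to 443 CPM there, to 1.82 and 48.0 CPM in treated replicates 1 and 2, and to 1.81 to 29.1 CPM in controls, with a median log2 fold change of 3.74 (0 called). The source and tissue labels read spinal cord, whereas the cell labels name the ganglia. Prdm12, which marks jugular neurons, had 558 to 3351 counts per library. Of the spinal cord markers, the oligodendrocyte factor Olig2 had 0 to 5 counts, the myelin gene Mog 0 to 2 and the motor neuron factor Mnx1 0 to 5, while the water channel gene Aqp4 had 134 to 412.

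Htr3a (ENSMUSG00000032269) and Htr3b (ENSMUSG00000008590) lie next to each other on the minus strand of chromosome 9, at 48899213 to 48911099 and 48935008 to 48964990 (GRCm38, GENCODE M21). The gap between them is 23908 bp and holds 0 protein-coding genes. Stretches of 100 bases, the length of a read, were compared between the annotated transcripts of each receptor and those of all other genes. The number shared with another gene was 0 for 8 of the 10 receptors, the 5-HT3 pair included. For Htr1b 14.2% were shared, with the antisense transcript D430036J16Rik, and for Htr2b 7.23%, with the proteasome gene Psmd1 on the opposite strand. Whether reads were counted by strand is not given in the sources used here, so for Htr1b and Htr2b reads of the partner may be included.

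Promoter windows from RefSeq (GRCm38.p6) were found for 8 of the 10 genes, with no entry for Htr3a or Htr4. The 250 bases before the start are shown for the receptor that stood lowest relative to controls, Htr3b (chr9:48964991-48965240, minus strand), and for Htr1d (chr4:136423274-136423523, plus strand, the first of its starts), the 1 tested receptor whose 3 treated libraries all lay above the 3 controls. Capitals mark matches to 4 motifs searched on both strands: AP-1 (TGANTCA), the cyclic AMP response element (TGACGTCA), the TATA box (TATAAA) and the CCAAT box (CCAAT).
Htr3b: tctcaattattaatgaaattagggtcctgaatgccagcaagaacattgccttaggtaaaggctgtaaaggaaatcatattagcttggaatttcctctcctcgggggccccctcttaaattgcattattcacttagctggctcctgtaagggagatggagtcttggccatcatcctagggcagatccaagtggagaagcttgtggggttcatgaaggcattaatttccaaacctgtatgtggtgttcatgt
Htr1d: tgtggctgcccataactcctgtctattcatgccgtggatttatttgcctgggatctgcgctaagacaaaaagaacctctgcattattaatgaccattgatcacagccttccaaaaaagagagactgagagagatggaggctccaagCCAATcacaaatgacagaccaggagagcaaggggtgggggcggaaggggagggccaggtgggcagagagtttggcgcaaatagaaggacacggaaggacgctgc
Htr3b held none of these letters, and Htr1d held 1 CCAAT box, 104 bases before the start, with 51.6% G and C against 44.0% in Htr3b. Over all 32851 promoter windows of 250 bases, 33.8% held a CCAAT box, 12.4% a TATA box, 6.75% an AP-1 site and 1.55% a cyclic AMP response element. Of the other receptors, Htr1b held CCAAT boxes 174 and 79 bases before its start, and Htr2b an AP-1 site 163 bases before its start. These matches are descriptions of the letters and not of binding.

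Levels of different genes were compared as CPM per kilobase of merged exons. In the controls Htr3a stood at 216 ± 13.2 and Htr3b at 19.0 ± 1.74 (SD, n = 3). Next came the Gi-coupled receptors Htr1b at 3.80 ± 0.175, Htr1d at 2.37 ± 0.255 and Htr1f at 1.63 ± 0.176. The Gs-coupled Htr7 had 1.07 ± 0.359 and Htr4 0.922 ± 0.320. The Gq-coupled Htr2a had 0.594 ± 0.0601, the Gi-coupled Htr1a 0.473 ± 0.284 and the Gq-coupled Htr2b 0.00602 ± 0.0104. Htr3a exceeded 99.2% of the 16019 tested genes on this scale and Htr3b 84.6%. Neighbours in this order overlapped between control libraries for Htr1f with Htr7, Htr7 with Htr4, and Htr2a with Htr1a, and the other neighbours did not overlap.

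**Figure D1:**
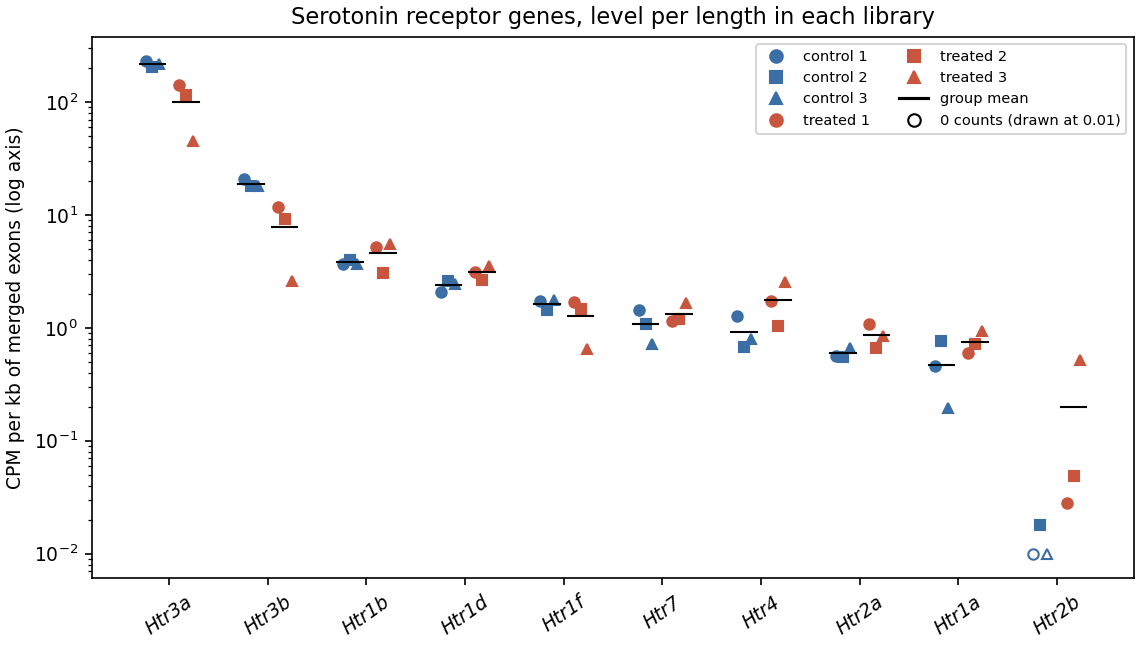
Level of the 10 serotonin receptor genes in each library, as CPM per kilobase of merged exons on a log axis, in order of the control mean. Points are single libraries (controls blue, treated red, one symbol per replicate), black lines are group means, and open symbols are libraries with 0 counts. Htr3a and Htr3b lie highest in the controls, and in both genes the 3 treated libraries lie under the 3 controls.

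In treated ganglia the order of the first 4 genes was the same, with Htr3a at 100.0 ± 49.4 and Htr3b at 7.89 ± 4.75 CPM per kilobase, but Htr3b then overlapped Htr1b at 4.59 ± 1.32. In treated replicate 3 Htr3b had 2.61 CPM per kilobase, less than Htr1b at 5.47 and Htr1d at 3.53 in the same library. The 5-HT3 pair held 95.7%, 95.2% and 95.8% of the summed receptor level per kilobase in controls versus 91.2%, 92.0% and 74.6% after treatment. The Gi-coupled receptors held 3.05%, 3.79% and 3.30% in controls versus 6.39%, 5.84% and 16.6% after treatment. Both shares are without overlap between the groups, but shares of a whole depend on each other. The summed level of the Gi-coupled receptors itself was 7.97, 8.79 and 8.07 CPM per kilobase in controls versus 10.6, 7.90 and 10.6 after treatment, so treated replicate 2 lay below every control.

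The design contrasts ganglia of mice given S961, the insulin receptor antagonist, with ganglia of mice given only PBS. Whether the receptor was blocked in the ganglia was not tested. Of the 10 receptors, 9 passed the filter on low counts and were tested, and 0 of these passed edgeR's quasi-likelihood test after adjustment over all 16019 genes, where 0% of all genes were called in either direction. The smallest adjusted p of any gene was 0.179, and those of the receptors ran from 0.724 to 0.833. Without adjustment, 2 receptors with lower values, Htr3a and Htr3b, and 1 with higher values, Htr4, had p under 0.05, where 2.67% of all genes did so with lower and 4% with higher values. DESeq2 called 89 genes, limma-voom 0 and limma-voom with sample weights 8, and each of these called 0 of the receptors. The receptors' median log2 fold change was 0.30, against 0.016 over all genes tested, with 6 positive and 3 negative.

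Htr3a, whose product forms the channel on its own and is needed in every 5-HT3 receptor, had 8334, 10987 and 6675 counts in control replicates 1, 2 and 3 against 9815, 6876 and 1175 in treated replicates 1, 2 and 3. Relative to library size these are 478, 423 and 451 CPM in controls, compared with 292, 240 and 93.5 CPM after treatment. The 3 treated libraries all lay below the 3 controls, and treated replicate 3 was lowest, 4.82-fold below the control mean. The log2 fold change, treated minus control, was -1.11 ± 0.39 (SE), which is a 2.16-fold lower mean (edgeR adjusted p = 0.724). The spread over the controls was 6.12% of the mean, while counting error alone would give 1.07%, so replicates and not depth limit the precision.

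Htr3b, whose product joins Htr3a in channels of larger conductance, had 883, 1125 and 642 counts in control replicates against 956, 641 and 79 in treated ones. The levels were 50.6, 43.3 and 43.4 CPM in controls, compared with 28.4, 22.3 and 6.28 CPM after treatment. As for its partner, the groups did not overlap, and treated replicate 3 was lowest, 7.28-fold below the control mean. The log2 fold change was -1.24 ± 0.50 (SE, edgeR adjusted p = 0.737). In bulk tissue, fewer cells of a type and less RNA per cell cannot be told apart. Among the 9 tested receptors, 2 had all treated libraries below all controls, where 7.63% of all tested genes did, and 1 had them all above, where 7.07% did (3 of 9 against 14.7% in either direction).

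Treated replicate 3, the library with the most fat cell RNA, widened the treated spread, and the part of that tissue in the values was not tested. Without that library the log2 fold change of Htr3a was -0.76 ± 0.10 (SE, edgeR adjusted p = 0.0504), and that of Htr3b was -0.85 ± 0.13 (adjusted p = 0.0936). The differences were thus smaller, and their errors smaller still, but neither passed 0.05. Over all the alternatives the adjusted p of Htr3a ran from 0.0504 to 0.993 and that of Htr3b from 0.0936 to 0.993, and the log2 fold changes ran from -1.44 to -0.74 and from -1.65 to -0.85.

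**Figure D2:**
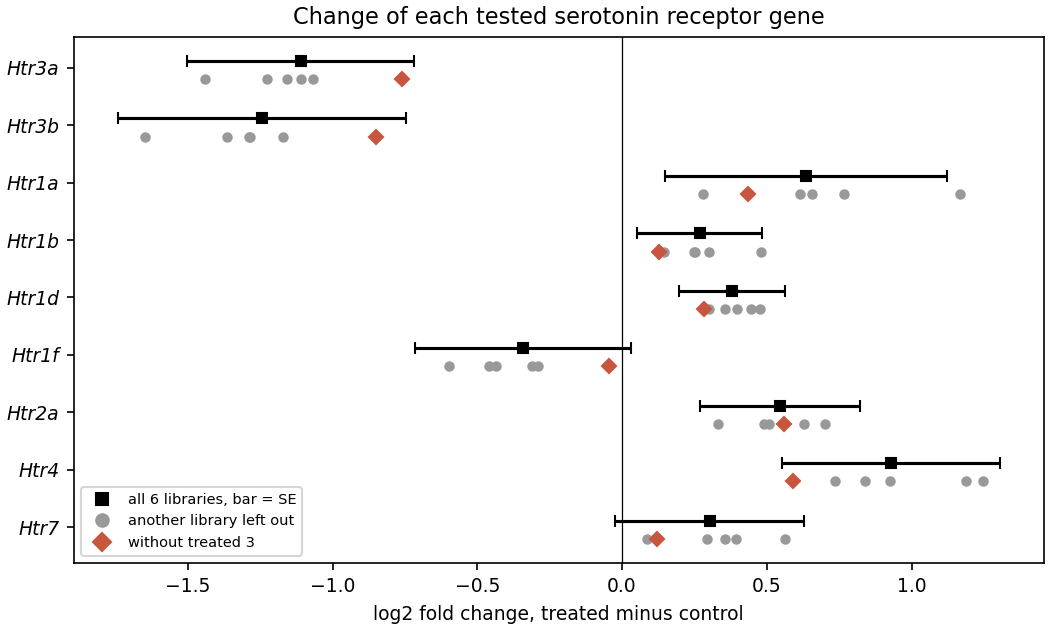
Log2 fold change, treated minus control, of the 9 tested serotonin receptor genes. Black squares with bars give the value and SE from all 6 libraries, grey points the values with another library left out, and red diamonds those without treated replicate 3, which are -0.76 for Htr3a and -0.85 for Htr3b.

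Markers of nodose neurons, the vagal neurons of viscera, also had lower values in the treated libraries. The log2 fold change was negative for all 10 nodose markers (median -0.62, 0 called), and 6 of them had all treated libraries below all controls. Of all tested genes, 7.63% had all treated libraries below all controls. The summed level of the nodose markers was 818 to 862 CPM in controls, compared with 423 to 725 CPM after treatment, with the lowest value in treated replicate 3. The summed level of 8 pan-neuronal markers was 7508 to 8017 CPM in controls, compared with 5962 to 8184 CPM after treatment, so those groups overlapped. Set against the summed nodose markers of the same library, Htr3a stood at 55.4, 49.7 and 55.1 CPM per 100 CPM of markers in controls versus 40.8, 33.1 and 22.1 after treatment. Htr3b stood at 5.87, 5.08 and 5.30 in controls versus 3.97, 3.08 and 1.48 after treatment. On this scale all 3 treated libraries lay below all 3 controls for both genes. The sum is weighted to its most abundant markers, led by Slc17a6 at 268 CPM in controls, with a log2 fold change of -0.16. Whether Slc17a6 and the other listed markers are confined to nodose neurons was not tested. The log2 fold changes of the single nodose markers ran from -1.55 to -0.096, and only the lowest was below those of Htr3a and Htr3b. The place of both genes against nodose markers thus depends on which markers are taken. With libraries scaled to the nodose markers in edgeR, an alternative chosen after the data were seen, Htr3a was at -0.74 and Htr3b at -0.92 on the log2 scale (adjusted p = 0.208 for both). That scaling raised the median log2 fold change of all genes to 0.54, and 0.868% of all tested genes then had all treated libraries below all controls and 47.4% above. The part of the nodose neurons in the Htr3a and Htr3b values was not tested.

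**Figure D3:**
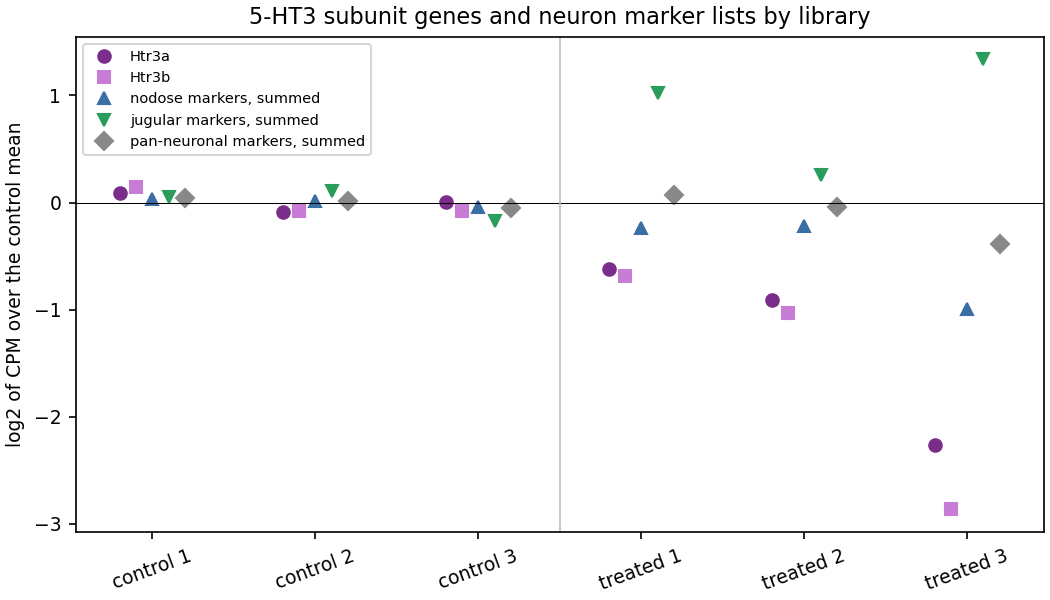
Log2 of the level in each library over the control mean, for Htr3a, Htr3b and the summed nodose, jugular and pan-neuronal marker lists, with controls left and treated libraries right of the grey line. In each treated library Htr3a and Htr3b lie under the summed nodose markers, which run from 423 to 725 CPM there.

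The ratio of the subunit genes within a library does not depend on the scaling between libraries. It was 10.6, 10.2 and 9.62 Htr3b counts per 100 Htr3a counts in the controls, with 95% exact binomial intervals of 9.87 to 11.4, 9.62 to 10.9 and 8.86 to 10.4. In the treated libraries it was 9.74, 9.32 and 6.72, with intervals of 9.10 to 10.4, 8.58 to 10.1 and 5.28 to 8.45, which cover counting error only. Treated replicate 1 lay above control replicate 3, and treated replicate 3 lay below all others. The group means were 10.2 ± 0.495 and 8.60 ± 1.63 (SD, n = 3), a log2 difference of -0.26 with a two-sided exact permutation p of 0.2, where 0.1 is the smallest p that 3 libraries against 3 allow. Without treated replicate 3 the log2 difference was -0.090.

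Across the 6 libraries, the log2 levels of Htr3a and Htr3b correlated with a Pearson r of 0.998 (Spearman rho 1). By this measure Htr3b was the fifth of 12296 genes most like Htr3a, and Htr3a the fifth most like Htr3b. The 3 genes outside the family most like Htr3a were Rab3ip, a vesicle traffic exchange factor, with an r of 0.999, the guidance gene Sema5a with 0.999 and the calcium sensor gene Ncald with 0.998. For Htr3b they were Nt5dc3 with an r of 1.000, the growth factor gene Fgf1 with 0.999 and Ncald with 0.998. All 6 points come from the same libraries and the low value of treated replicate 3 is shared by each of these genes. Among the G-protein-coupled receptors compared on this scale, the r with Htr3a was -0.85 for Htr1d, -0.78 for Htr4, -0.62 for Htr7, -0.55 for Htr1b and -0.53 for Htr2a. Htr1a, Htr1f and Htr2b had means under 4 CPM and were not compared, so the negative sign is not shown for all of these receptors.

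The Gi-coupled 5-HT1 receptors, autoreceptors and presynaptic brakes on release in many neurons, were low in counts. Htr1b, which with Htr1d is a target of the triptan drugs, had 305, 491 and 258 counts in control replicates against 828, 417 and 325 in treated ones. It stood at 17.5, 18.9 and 17.4 CPM in controls, compared with 24.6, 14.5 and 25.9 CPM after treatment, so treated replicate 2 lay below the controls and the others above. Its log2 fold change of 0.27 ± 0.22 (SE) was within about its error (edgeR adjusted p = 0.783), and it was -0.0080 in limma-voom with sample weights. Htr1d had 117, 216 and 115 counts in control replicates against 338, 242 and 142 in treated ones. It stood at 6.71, 8.31 and 7.77 CPM in controls, compared with 10.1, 8.43 and 11.3 CPM after treatment, without overlap, although treated replicate 2 exceeded control replicate 2 by little. Its log2 fold change was 0.38 ± 0.18 (edgeR adjusted p = 0.742).

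Htr1a, the receptor bound by buspirone, had 36, 89 and 13 counts in control replicates against 90, 92 and 53 in treated ones. The levels of 2.06, 3.42 and 0.878 CPM and of 2.68, 3.20 and 4.22 CPM overlapped. Its log2 fold change of 0.64 ± 0.49 (SE) was 0.28 without control replicate 3 and 1.17 without control replicate 2 (edgeR adjusted p = 0.778 with all libraries). Htr1f, the target of lasmiditan, had 77, 96 and 67 counts in control replicates against 146, 109 and 21 in treated ones. In CPM it stood at 4.41, 3.69 and 4.53 in controls and 4.34, 3.80 and 1.67 in treated ganglia, so only treated replicate 3 lay outside the control range. Its log2 fold change was -0.34 ± 0.37, and it was -0.044 without treated replicate 3 and 0.037 when libraries were scaled to the nodose markers.

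Of the Gq-coupled receptors, Htr2a, which mediates the constriction of vessels and excitation by serotonin, had 55, 81 and 55 counts in control replicates against 204, 106 and 60 in treated ones. It stood at 3.15, 3.12 and 3.72 CPM in controls, compared with 6.07, 3.69 and 4.77 CPM after treatment, where treated replicate 2 lay just below control replicate 3. Its log2 fold change was 0.54 ± 0.28 (SE, edgeR adjusted p = 0.742), and 0.33 without treated replicate 1. The summed vascular smooth muscle markers, which could carry Htr2a, were at 30.0 to 41.4 CPM in controls, compared with 29.4 to 46.8 CPM after treatment. Of these 4 markers 3 were tested, and 2 of the 3 had positive log2 fold changes.

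Htr2b, the receptor linked to valve fibrosis by some drugs, did not pass the filter on low counts and was not tested. It had 0, 1 and 0 counts in control replicates against 2, 3 and 14 in treated ones. The summed counts of 1 and 19 correspond, after allowing for library size, to a ratio of 14.8 (95% exact binomial interval 2.35 to 614, counting error only). Treated replicate 3 held 14 of these counts. Leaving it out gave 4.67 (0.523 to 221). In treated replicate 3 the summed fibroblast markers were at 1731 CPM, against 376 and 605 CPM in treated replicates 1 and 2 and 506 to 904 CPM in controls. All 5 of these markers had positive log2 fold changes, although treated replicate 1 had the lowest sum of all libraries. The summed macrophage markers were at 209 CPM in treated replicate 3 against 28.4 to 63.3 CPM in the other libraries, with 6 of 6 positive. The part of these cells in the Htr2b counts was not tested.

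Of the Gs-coupled receptors, Htr4 (chromosome 18, 62324204 to 62496577, GRCm38), through which prokinetic drugs act on the gut, had 110, 87 and 58 counts in control replicates against 283, 147 and 156 in treated ones. It stood at 6.31, 3.35 and 3.92 CPM in controls, compared with 8.42, 5.12 and 12.4 CPM after treatment, and control replicate 1 lay above treated replicate 2. The means of 4.52 ± 1.57 and 8.65 ± 3.65 CPM (SD, n = 3) differed 1.91-fold, with a log2 fold change of 0.93 ± 0.38 (SE, edgeR adjusted p = 0.737). Without treated replicate 3 it was 0.59, and without control replicate 1 it was 1.25. Htr7, a receptor with high affinity for serotonin, had 85, 95 and 36 counts in control replicates against 130, 118 and 71 in treated ones. Its levels of 4.87, 3.65 and 2.43 CPM and of 3.87, 4.11 and 5.65 CPM overlapped, and its log2 fold change was 0.30 ± 0.33 (edgeR adjusted p = 0.832).

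Jugular markers had a higher summed level in the treated libraries, and the chosen G-protein-coupled receptors other than Htr1f had higher treated means. Of those tested, only Htr1d had groups without overlap, and treated replicate 2 lay below every control for Htr1b. Htr1f had a lower treated mean and was lowest in treated replicate 3. The 3 other tested serotonin receptors, outside the chosen genes, each had a log2 fold change below 0, with a median of -0.19. The log2 fold change was positive for all 8 jugular markers, none of which were called, and its median was 0.94. Their summed level was 267 to 323 CPM in controls, compared with 360 to 760 CPM after treatment, with treated replicate 2 lowest and treated replicate 3 highest of the treated. Treated replicate 2 was also the lowest treated library for Htr1b, Htr1d, Htr2a and Htr4, whereas Htr1a and Htr7 were lowest in treated replicate 1. Treated replicate 3 was the highest for all of these but Htr2a, which was highest in treated replicate 1. Whether the share of jugular neurons carries these receptor values was not tested.

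The other genes of the pathway were taken from lists chosen for their function, and 0 of the 45 tested genes passed in either direction. Of the 4 other serotonin receptors, Htr2c was too low to test, and the remaining 3 had a median log2 fold change of -0.19, each of them below 0. The Gi-coupled Htr5a stood at 7.05 ± 1.17 CPM in controls, compared with 5.24 ± 2.48 CPM after treatment (SD, n = 3), with a log2 fold change of -0.41 ± 0.38 (SE). Htr5b was at -0.16 ± 0.35, with 0.0075 without control replicate 2 and 0.40 when libraries were scaled to the nodose markers.

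Of 9 genes for the making, transport and breakdown of serotonin, 7 had a log2 fold change below 0, and the median of the list was -0.59 against 0.016 over all genes. Tph1, which encodes the rate-limiting enzyme of serotonin synthesis outside the brain, had 2.69, 3.15 and 3.92 CPM in controls, compared with 1.40, 1.53 and 1.43 CPM after treatment, with a log2 fold change of -1.16 ± 0.32 (SE). Ddc, the decarboxylase shared with dopamine synthesis, had 43.0, 43.9 and 46.9 CPM in controls, compared with 24.7, 33.7 and 24.4 CPM after treatment, at -0.69 ± 0.14. Maob, a monoamine oxidase of the outer mitochondrial membrane, had 22.0 ± 1.87 CPM in controls, compared with 14.6 ± 0.762 CPM after treatment (SD, n = 3), at -0.59 ± 0.12. In each of these genes the treated libraries lay below the controls and treated replicate 3 did not stand apart.

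Under edgeR the adjusted p was 0.642 for Tph1, 0.568 for Ddc and 0.568 for Maob. Under the DESeq2 Wald test the adjusted p was 0.0173 for Ddc and 0.0353 for Maob, and over all alternatives the highest was 0.993 for both, without control replicate 1. The summed markers of sympathetic neurons and glomus cells, cells that also carry Ddc, were at 74.3 to 93.7 CPM in controls, compared with 29.6 to 59.3 CPM after treatment. Th made up most of that sum, at 51.6 to 57.1 CPM in controls and 27.3 to 46.2 CPM in treated libraries. Of the 5 markers summed, 4 were tested and all 4 had negative log2 fold changes. Their part in the values of Ddc and Maob was not tested.

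Slc6a4, the serotonin transporter that antidepressants block, had 6, 12 and 4 counts in control replicates against 18, 88 and 28 in treated ones. It stood at 0.344, 0.462 and 0.270 CPM in controls, compared with 0.536, 3.07 and 2.23 CPM after treatment. The groups did not overlap, but treated replicate 1 was close to control replicate 2. The log2 fold change was 2.38 ± 0.71 (SE, edgeR adjusted p = 0.670), and it ran from 1.83 to 2.83 with single libraries left out. The summed platelet markers, from cells that also carry the transporter, were at 4.07 to 5.95 CPM in controls and at 4.37, 4.25 and 20.6 CPM in treated replicates 1, 2 and 3. The summed mast cell markers were at 32.8 to 48.5 CPM in controls, compared with 56.3 to 63.8 CPM after treatment. Kit made up nearly all of that sum, at 30.7 to 47.8 CPM in controls and 45.6 to 62.5 CPM in treated libraries. The other 5 mast cell markers summed to 0.731 to 2.97 CPM and to 1.22 to 10.7 CPM, so they overlapped. The part of mast cells and platelets in the Slc6a4 values was not tested.

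Among chaperones and scaffolds, the log2 fold change was below 0 for 6 of 7 genes, and its median was -0.085. The exception was Arrb1, a beta-arrestin that desensitises G-protein-coupled receptors, with 216, 215 and 199 CPM in controls, compared with 263, 249 and 276 CPM after treatment. Its log2 fold change was 0.32 ± 0.088 (SE, edgeR adjusted p = 0.642). Ric3, a chaperone of 5-HT3 and nicotinic receptors, was at -0.085 ± 0.16.

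Of the Gq effectors, 6 of 8 had negative values, with a median of -0.077. The phospholipase C genes Plcb4 and Plcb3 were at -0.48 ± 0.15 and -0.37 ± 0.16 (SE), and Plcb3 was at 0.11 when libraries were scaled to the nodose markers. Plcb4 had 249 to 267 CPM in controls, compared with 144 to 213 CPM after treatment. Of the Gs effectors 5 had positive and 5 negative values, with a median of -0.0051. Gnas, which encodes the Gs alpha subunit and shares 2457 bp of exons with antisense transcripts, had 2121 to 2655 CPM in controls, compared with 1326 to 2001 CPM after treatment, at -0.51 ± 0.18. Of the Gi and Go effectors 5 of 8 had negative values, with a median of -0.13. The Go alpha subunit gene Gnao1 was at -0.074 ± 0.12, with 0.040 when libraries were scaled to pan-neuronal genes and 0.011 without treated replicate 3. The regulator Rgs4 was at -0.19 ± 0.15, and at 0.32 when libraries were scaled to the nodose markers.

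**Figure D4:**
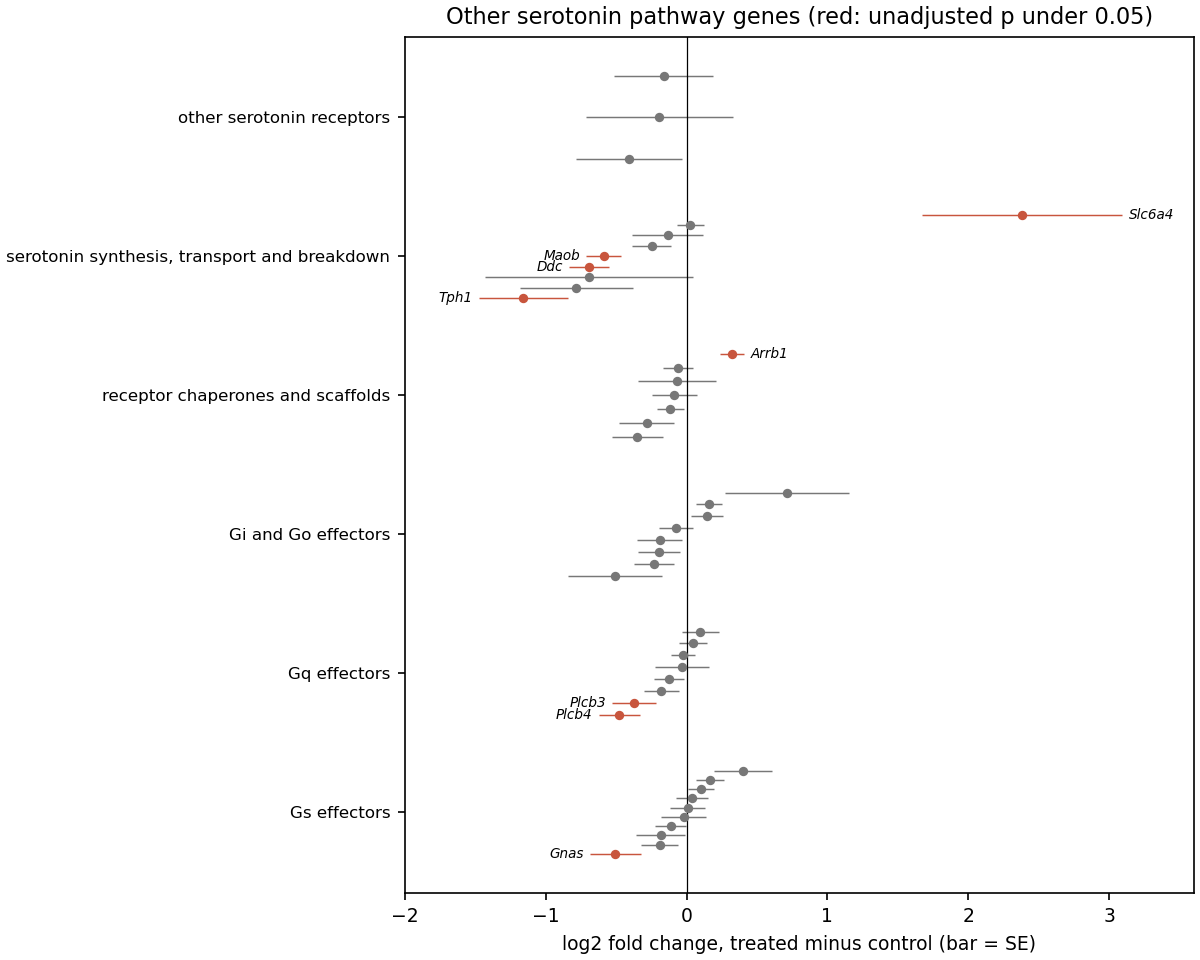
Log2 fold change, treated minus control, with its SE, of the 45 tested genes in 6 lists around serotonin signalling, 1 point per gene. Red points with names had an unadjusted edgeR p under 0.05, and none passed after adjustment over all 16019 genes. Slc6a4 lies highest at 2.38 and Tph1 lowest at -1.16.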

How the data were processed

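RNA of 6 jugular-nodose ganglia libraries was read at 100 bp after a strand-specific library kit for small inputs, per the labels' protocols. The submitters' processing notes name bcl2fastq 2.20, STAR 2.7.7a, DESeq2, edgeR and build mm10. The deposited values are raw counts of exonic reads per gene, 1 file per library. The counting program, annotation and strand mode are not stated in the labels. Of 32719 gene identifiers, 32663 matched GENCODE M21, which gave exon lengths and coordinates (GRCm38, the same build as mm10).

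Genes were kept by filterByExpr (minimum count 10), normalised between libraries by TMM and compared by the robust quasi-likelihood test of edgeR 4.0.16 under R 4.3.3, unpaired, with Benjamini-Hochberg adjustment over 16019 genes and a threshold of 0.05. SE is the log2 fold change divided by the square root of F. Log2 CPM used a prior count of 2, and likeness was ranked among genes at a mean of at least 4 CPM. Alternatives were other scalings, filters and thresholds, the replicate block, DESeq2 1.42.0, limma-voom (limma 3.58.1) and leaving out each library with the tested genes held fixed. The procedure was tested on simulated data.

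The receptors and lists were chosen with earlier results of these data known. Named pathway genes are those with an unadjusted p under 0.05, or otherwise the 2 most abundant of a list. Ric3 and the CPM of Plcb4, and the markers Aqp4, Mog, Mnx1, Slc17a6 and Th, were named after their values were seen. For another marker gene, values are not reported here.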

Additional observations from a re-analysis of the deposited data

How the results depend on the processing

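The directions of Htr3a, Htr3b, Htr1a, Htr1d, Htr2a, Htr4 and Htr7 were the same under every alternative run wherever they were tested, and 0 of the 9 tested receptors were called under any. Htr1f was at 0.037 with libraries scaled to the nodose markers, and Htr1b at -0.0080 in limma-voom with sample weights. The count of genes called, 0 as reported, was 26 without a low count filter, 89 with the DESeq2 Wald test, 8 in limma-voom with sample weights, and 0 to 9 with single libraries left out (9 without treated replicate 1 and 6 without treated replicate 3). Receptors whose groups did not overlap numbered 3, and 3 to 6 with single libraries left out, where smaller groups overlap less easily: 5 without control replicate 1 or control replicate 2 and 6 without treated replicate 2, of 9 tested. Of all genes, 20.7%, 27.1% and 23.4% did not overlap in those settings, against 14.7% with all libraries.

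Replicate numbers were not taken to pair the samples, since the labels do not say that they mark a shared animal, litter or day. Deviations from the group means correlated at 0.0142, 0.564 and 0.488 for the numbers 1, 2 and 3. The numbers 2 and 3 matched their own number best, with -0.485 and -0.495 across them. Deviations from a group mean sum to 0 for each gene, so these correlations depend on each other and negative ones partly follow from positive ones. Control replicate 1 correlated more with treated replicate 3 (0.125). Whether the numbers mark a shared batch cannot be told from the labels. With a replicate block 1 gene was called and 0 receptors, with Htr3a at -1.25.

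Scaling to pan-neuronal genes moved the median log2 fold change of all genes from 0.016 to 0.15, and scaling to the nodose markers, chosen after the data were seen, moved it to 0.54. With the former, the median was -0.46 for serotonin synthesis, transport and breakdown, -0.018 for Gi and Go effectors and 0.14 for Gs effectors, and Gnao1 was at 0.040. With the latter, Gnao1 was at 0.42, Htr5b at 0.40, Rgs4 at 0.32 and Plcb3 at 0.11. With single libraries left out, the list medians ran from -0.62 to -0.33 for synthesis, transport and breakdown, from -0.24 to -0.011 for Gi and Go effectors, from -0.083 to 0.071 for Gs effectors. Htr5b ran from -0.31 to 0.0075 and Gnao1 from -0.19 to 0.011. By rank, the likeness of Rab3ip and Ncald to Htr3a was 1 and of Sema5a 0.943, and to Htr3b it was 1 for Nt5dc3 and Ncald and 0.943 for Fgf1. The cause of these shifts was not tested. For Htr1f and Htr2a, counting error alone would give 11.2% and 12.5% of the control mean, about the spread seen between the controls (10.8% and 10.1%), while Htr1a (60.0% against 14.7%) and Htr7 (33.4% against 11.8%) are limited mainly by the spread of 3 libraries.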
